A study of Mus musculus with 6 samples.

Results

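Fos, Fosb, Fosl2, Jun, Junb, Jund, Egr1, Egr2, Egr3 and Ier2 are 10 immediate early genes, most of which code for transcription factors, and their RNA levels were followed in mouse pro-B leukaemia cells with and without mutations of Ikaros. They were chosen by name, as the rows of these 10 symbols among the 22098 gene symbols measured. All 10 were present with 1 transcript row each, and all 10 reached the level needed for testing, an RPKM (reads per unit of transcript length and of library size) of 1 or more in 2 or more libraries, as 11379 genes did. Egr2 and Egr3 reached that level in the ZnF1 libraries alone, so their tests favour a ZnF1 difference by construction, and counts for the other 8 members stand beside those for all 10 in the genotype comparisons.

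The cells were C57BL/6 bone marrow, transformed at day 0 with a retrovirus carrying the p185 form of the BCR-ABL fusion kinase and a YFP reporter, and the labels call them pro-B acute lymphoblastic leukaemia cells. Every library, those of wild type included, therefore carried BCR-ABL. The groups were homozygous Ikaros ZnF4 mutants, homozygous Ikaros ZnF1 mutants and wild type (wt), where ZnF1 and ZnF4 are the first and the fourth zinc finger of Ikaros (Ikzf1), a DNA-binding regulator of lymphocyte development. Each group had 1 library of poly(A) RNA after 28 days in culture and 1 after 21 days, so n = 2 per genotype. Whether the days are separate cultures is not in the labels. A p-value for genotypes speaks only of how far their differences repeated between the days, after a shift shared by the genotypes is taken out. Differences were taken between log2(RPKM + 1) values and carry the standard error of a limma fit with day as a second term. A gene was called when its p, adjusted by Benjamini-Hochberg over all 11379 genes, was below 0.05.

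Fos and Jun proteins form the AP-1 transcription factor as dimers through a basic leucine zipper. Fos proteins need a partner such as Jun, whereas Jun proteins also pair with each other. Egr proteins bind GC-rich sites through zinc fingers, and the Nab corepressors restrain them. These genes are transcribed within minutes of a signal, without new protein synthesis, mainly through ERK and other kinases that act on serum response factor with its Ets partners and on CREB at the promoter, and their RNAs are short-lived. In B-lineage cells they respond to receptor and kinase signalling, and in macrophages to colony-stimulating factors and adhesion.

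Promoter sequence was at hand for 7 of the 10 members, from RefSeq in the build GRCm38.p6. Because the deposited values use the build mm9, these coordinates belong to RefSeq and not to the expression table. The 250 bases before the start site were searched on both strands for binding motifs of the factors named above. The following stretches are shown because Fos, Fosl2 and Egr2 were called higher in ZnF1 cells, as given below, while Jun was called in no comparison of genotypes. They read 5' to 3' on the gene's strand. Capitals mark the cyclic AMP response element core TGACG, or CGTCA on the other strand, in Fos and Egr2, the Egr site GCGNGGGCG in Fosl2, the Jun-type AP-1 site TGACATCA in Jun, and the CArG box, which serum response factor binds, in Egr2.
Fos (chr12:85473640-85473889, plus strand): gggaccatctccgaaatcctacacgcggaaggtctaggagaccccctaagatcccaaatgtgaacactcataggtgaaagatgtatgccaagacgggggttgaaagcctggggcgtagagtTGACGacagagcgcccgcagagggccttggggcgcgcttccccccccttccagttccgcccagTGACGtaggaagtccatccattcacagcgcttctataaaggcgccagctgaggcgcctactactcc
Fosl2 (chr5:32136222-32136471, plus strand): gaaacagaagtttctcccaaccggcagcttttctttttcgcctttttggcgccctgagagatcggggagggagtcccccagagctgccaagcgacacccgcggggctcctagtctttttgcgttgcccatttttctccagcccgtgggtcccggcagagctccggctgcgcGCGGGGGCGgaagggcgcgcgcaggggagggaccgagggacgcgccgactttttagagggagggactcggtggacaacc
Jun (chr4:95052223-95052472, minus strand): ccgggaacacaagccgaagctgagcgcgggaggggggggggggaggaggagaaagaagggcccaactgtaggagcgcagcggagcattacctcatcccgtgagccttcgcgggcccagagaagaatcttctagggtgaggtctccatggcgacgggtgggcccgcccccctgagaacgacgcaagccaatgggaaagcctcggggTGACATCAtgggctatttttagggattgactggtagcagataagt
Egr2 (chr10:67537789-67537818, plus strand, 80 to 51 bases before the start): tcctcagtCCATATATGGgcagcgaCGTCA

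Fos held the cyclic AMP response core at 129 to 125 and at 66 to 62 bases before its start, and a TATAAA box at 33 to 28 bases before it. That core was also found in Fosb, Junb and Egr2, and 17.8% of 32851 mouse promoter windows of this length hold it. The Egr site lay 79 to 71 bases before the start of Fosl2 and 50 to 42 bases before that of Fosb, and 4.7% of windows hold it. The CArG box was found in Egr2 alone among the 7 members searched, against 1.47% of windows, and Egr2 had several windows. Egr1, Egr3 and Ier2 were not searched, nor were bases further upstream in any member. The Jun-type site was found only in Jun among those 7, 45 to 38 bases before its start, against 2.93% of windows. The classical AP-1 site TGANTCA (6.75% of windows) was in none of the windows of those members. Neither was the full CRE TGACGTCA (1.55%), which contains the TGACG core. The core TGGGAA, one form of the Ikaros motif, was found in Jun and Jund, and 21.6% of windows hold it. The Ets core CCGGAA was found in Egr2, against 12.0% of windows, and the TATAAA box is in 12.4%. A match describes letters and says nothing of binding.

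These libraries are bulk RNA, in which fewer cells of a type and less RNA per cell cannot be told apart. RNA of markers of several cell types was found in them, and which cells held it was not tested. The 11 pro-B markers (among them Cd79a, Pax5 and Ebf1) were all tested, and they summed to 2504 and 2834 RPKM in ZnF4 cells at days 28 and 21, 2656 and 2663 RPKM in ZnF1 cells, and 2378 and 2606 RPKM in wt cells. Of the 11, 3 rose in the ZnF1 mutant against wt: Il7r by 1.02, Rag1 by 1.72 and Rag2 by 0.85. Over all genes tested 22.9% rose and 15.2% fell in that mutant, and 10.9% rose and 7.32% fell in the ZnF4 mutant. In the ZnF4 mutant Rag1 rose by 2.08, Rag2 by 0.998 and Igll1 by 0.54, while Dntt fell by 2.06. Of these 7 calls, those of Il7r and Rag2 in the ZnF1 mutant held with any 1 library left out, and each of the others was lost without 1 or more of the libraries. The 12 macrophage markers (among them Csf1r, Cd68, Lyz2 and C1qa) summed to 286.3 and 220.2 RPKM in ZnF4 cells, 2072 and 2198 RPKM in ZnF1 cells, and 349.8 and 552.9 RPKM in wt cells, and none was at 0. RNA of these markers was present in every library and was highest in the ZnF1 libraries, where the sum was 5.92 times that of wt at day 28 and 3.98 times at day 21. All 12 rose in the ZnF1 mutant, with a median log2 difference of 2.27, and 8 of 12 fell in the ZnF4 mutant, with a median of -0.80. That last count was 0 to 3 when any 1 of the 6 libraries was left out. The 10 stromal markers (among them Col1a1 and Sparc) summed to 20.9 and 23.6 RPKM in ZnF4 cells, 185.1 and 186.7 RPKM in ZnF1 cells, and 31.7 and 46.1 RPKM in wt cells, with Lum at 0 throughout. All 8 that were tested rose in the ZnF1 mutant, with a median of 1.75, and 4 of the 8 fell in the ZnF4 mutant, with a median of -0.67 (0 to 2 with any 1 library left out). Of other cells, 3 of 7 granulocyte, 3 of 6 T cell and 2 of 5 erythroid markers were at 0 in all libraries, no erythroid marker reached the level for testing, and the granulocyte sum was 2.3 RPKM at most. Cd4, which T cells and some macrophages express, had 7.2 and 8.5 RPKM in ZnF1 cells at days 28 and 21, against 0.2 and 0.4 RPKM in wt cells, and rose by 2.77 ± 0.13 (adjusted p = 0.001). Lck, a kinase of T cells and some B-lineage cells, was at 11.7 to 46.7 RPKM over the 6 libraries and fell by 1.08 ± 0.32 in the ZnF1 mutant (adjusted p = 0.0495, and up to 0.285 with 1 library left out). The granulocyte gene S100a8 had 2.1 and 1.2 RPKM in ZnF1 cells, against 0.1 and 0.4 RPKM in wt cells. It rose by 1.07 ± 0.212 (adjusted p = 0.0155), a call that was lost without some single libraries. Cd4 and S100a8 reached the level for testing in the ZnF1 libraries alone. Their tests thus favour a ZnF1 difference by construction.

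ZnF1 mutant cells held more RNA of Fos, Fosl2, Egr1, Egr2, Egr3 and Junb than wt cells, with ratios of the mean RPKM between 1.93 for Junb and 5.8 for Egr3. In all, 6 of 10 members rose in the ZnF1 mutant and 0 fell, and of the 8 members other than Egr2 and Egr3, 4 rose. Over all genes tested 22.9% rose and 15.2% fell, as 2606 and 1730 genes (2047 and 2913 under quantile scaling). The median log2 difference of the 10 members was 0.91 (0.75 for the 8), and that of all genes tested was -0.02. The 2 ZnF1 values lay above both wt values for 7 of the 10 members and for 5 of the 8, against 34.7% of all genes. This higher RNA moved with the macrophage and stromal markers and with Cd4 and S100a8, and their part in the result was not tested. Of these, Cd4 and S100a8 passed the filter through the ZnF1 libraries alone. Within wt cells the macrophage sum at day 28 was 0.633 times that at day 21, beside 0.597 times for Egr1 and 1.54 times for Fos. Fosl2, Egr2 and Ier2 were at 0.81, 0.875 and 0.89 times. Junb, Jun, Jund, Egr3 and Fosb were at 1.28, 1.50, 1.56, 1.5 and 12.7 times. Each ratio rests on 1 library per day and was not tested.

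Fosl2, Egr2 and Egr3 were called under each of 13 alternative settings. All 3 were low in wt cells, so that their log2(RPKM + 1) differences understate the ratio. Egr2 and Egr3 passed the filter through the ZnF1 libraries alone, so these calls favour a ZnF1 difference by construction wherever the filter was kept. The plot of levels by library shows each member in all 6 libraries.

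**Figure D1:**
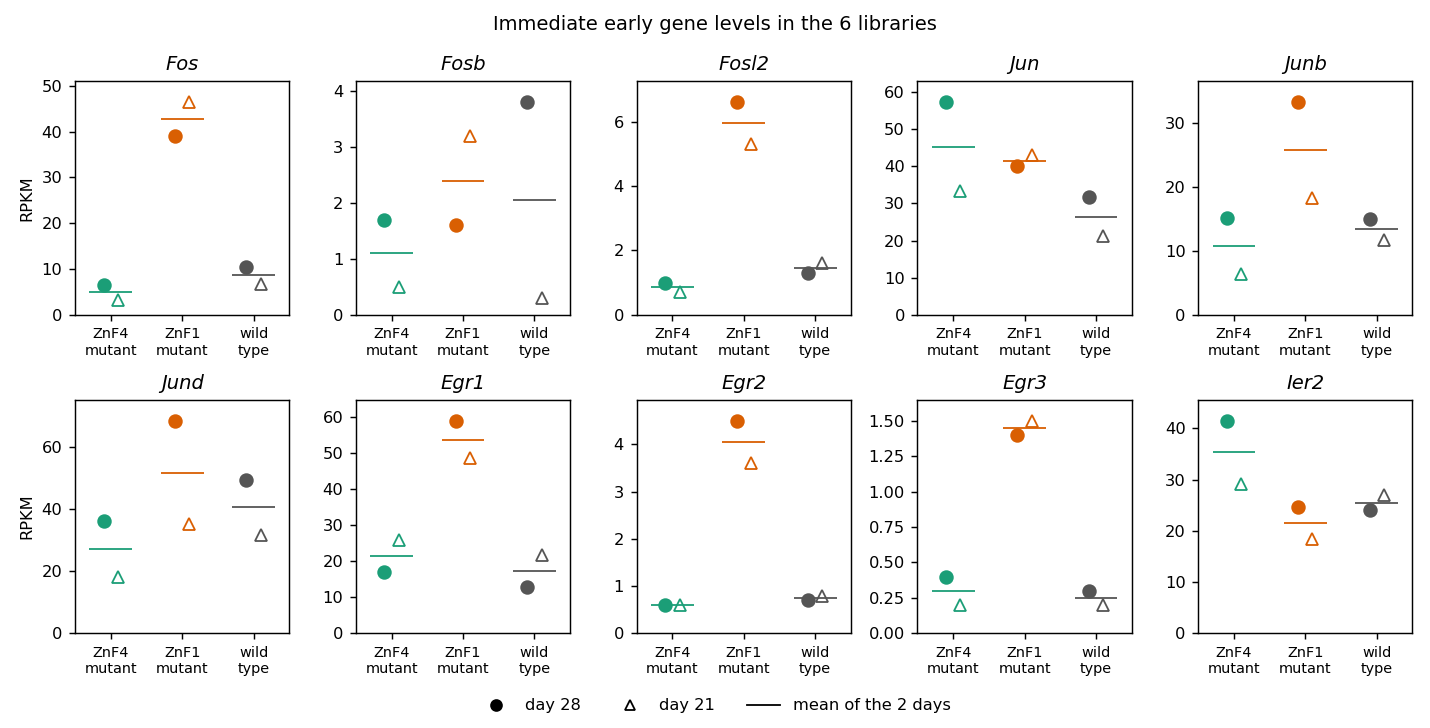
RPKM of the 10 members in each of the 6 libraries, with 1 panel per gene on a linear axis of its own from 0, the genotypes in the order ZnF4, ZnF1 and wt, filled circles for day 28, open triangles for day 21 and a line at the mean of both days. Fos reached 39.0 and 46.4 RPKM in the ZnF1 libraries, against 10.5 and 6.8 RPKM in the wt libraries, and the ZnF1 points also stand alone at the top for Fosl2, Egr1, Egr2 and Egr3.

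Among the Fos class, Fos itself, the founding member and the partner of Jun in the classical AP-1 dimer, had 39.0 RPKM at day 28 and 46.4 RPKM at day 21 in ZnF1 cells, against 10.5 and 6.8 RPKM in wt cells. The means were 42.7 ± 5.23 RPKM in ZnF1 cells and 8.65 ± 2.62 RPKM in wt cells (SD, n = 2 each), a ratio of 4.94. The log2 difference was 2.20 ± 0.251 (adjusted p = 0.00277). Both ZnF1 libraries were far above both wt libraries, and Fos stood at the 84.2 and 88.3 percentile of the tested genes in ZnF1 cells at days 28 and 21, against 48.8 and 38.1 in wt cells. Fosl2 (Fra-2), a Fos relative that lacks a strong activation domain, had 6.6 and 5.3 RPKM in ZnF1 cells at days 28 and 21, against 1.3 and 1.6 RPKM in wt cells. Its difference was 1.50 ± 0.142 (adjusted p = 0.00176), again with no overlap. Fosb was the third of the class among the members. It had 1.6 and 3.2 RPKM in ZnF1 cells at days 28 and 21, against 3.8 and 0.3 RPKM in wt cells. Its groups overlapped and the order of the genotypes turned round between the days, with a log2 difference of 0.40 ± 0.575 (adjusted p = 0.611) that was negative without the day 21 library of wt (-0.50) or of ZnF1 (-0.625).

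Jun, the strongest activator of the Jun class, had 40.1 RPKM at day 28 and 42.9 RPKM at day 21 in ZnF1 cells, against 31.6 and 21.1 RPKM in wt cells. The ZnF1 values were the higher ones, but the log2 difference of 0.66 ± 0.207 did not pass the test (adjusted p = 0.0564). It passed without the ZnF1 library of day 28, where it was 1.04. Junb, which has a weaker activation domain than Jun and can oppose it, had 33.2 and 18.2 RPKM in ZnF1 cells at days 28 and 21, against 15.0 and 11.7 RPKM in wt cells, and rose by 0.85 ± 0.19 (adjusted p = 0.0223). The Junb call was lost without the day term (adjusted p = 0.185), and also without either ZnF1 library or the day 28 library of wt, with an adjusted p of up to 0.153. Jund, the Jun gene with the steadiest expression in resting cells, had 68.4 and 35.1 RPKM in ZnF1 cells at days 28 and 21, against 49.5 and 31.8 RPKM in wt cells. Those ranges overlapped and the difference was 0.30 ± 0.103 (adjusted p = 0.0734). Exons of Junb overlap the opposite-strand gene Prdx2 by 173 bases in the GENCODE M21 annotation, and Jun and Jund overlap Junos and Gm11175 by 232 and 877 bases. No strand-marking step is named for the libraries, so reads of those stretches cannot be told apart. Prdx2 itself had 24.0 to 32.2 RPKM over the 6 libraries.

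Among the Egr genes, Egr1, the most abundant of the family, had 58.9 RPKM at day 28 and 48.5 RPKM at day 21 in ZnF1 cells, against 12.9 and 21.6 RPKM in wt cells. Its means were 53.7 ± 7.35 RPKM in ZnF1 cells and 17.25 ± 6.15 RPKM in wt cells (SD, n = 2 each), and its log2 difference was 1.62 ± 0.241 (adjusted p = 0.0064). The groups did not overlap, though without the wt library of day 28 the adjusted p was 0.0849. Egr2, which in other lineages controls myelination and lymphocyte tolerance, had 4.5 and 3.6 RPKM in ZnF1 cells at days 28 and 21, against 0.7 and 0.8 RPKM in wt cells, a difference of 1.52 ± 0.122 (adjusted p = 0.0013). Egr3, which acts beside Egr2 in lymphocytes, had 1.4 and 1.5 RPKM in ZnF1 cells at days 28 and 21, against 0.3 and 0.2 RPKM in wt cells, a difference of 0.97 ± 0.115 (adjusted p = 0.00306). Both were thus below 1 RPKM in wt cells and above it in ZnF1 cells on each day. At 1-decimal rounding, a value of 0.2 or 0.3 RPKM rests on few steps of 0.1, and the Egr3 ratio of 5.8 is coarse for that reason.

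Ier2, an immediate early gene outside both families that codes for a nuclear protein, did not follow them. It had 24.6 and 18.4 RPKM in ZnF1 cells at days 28 and 21, against 24.0 and 27.0 RPKM in wt cells. The ranges overlapped, and the difference of -0.25 ± 0.168 did not pass the test (adjusted p = 0.291). Without the wt library of day 21 it was 0.06.

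The make-up of AP-1 RNA was read from sums over the members of its 2 classes. Fosl1, a Fos relative outside the members that is given below, was not in these sums. The summed RPKM of the 3 Fos-class and 3 Jun-class genes was 117.7 and 62.3 in ZnF4 cells at days 28 and 21, 188.9 and 151.1 in ZnF1 cells, and 111.7 and 73.3 in wt cells. Fos-class RNA made up 7.82% and 7.22% of that sum in ZnF4 cells, 25.0% and 36.3% in ZnF1 cells, and 14.0% and 11.9% in wt cells. The ZnF1 shares were thus the highest and the ZnF4 shares the lowest on both days, without overlap between any of the 3 genotypes. These shares describe 2 libraries each and were not tested. Within the Egr genes, Egr1 was between 90.5% and 97.0% of the summed Egr RPKM in every library.

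**Figure D2:**
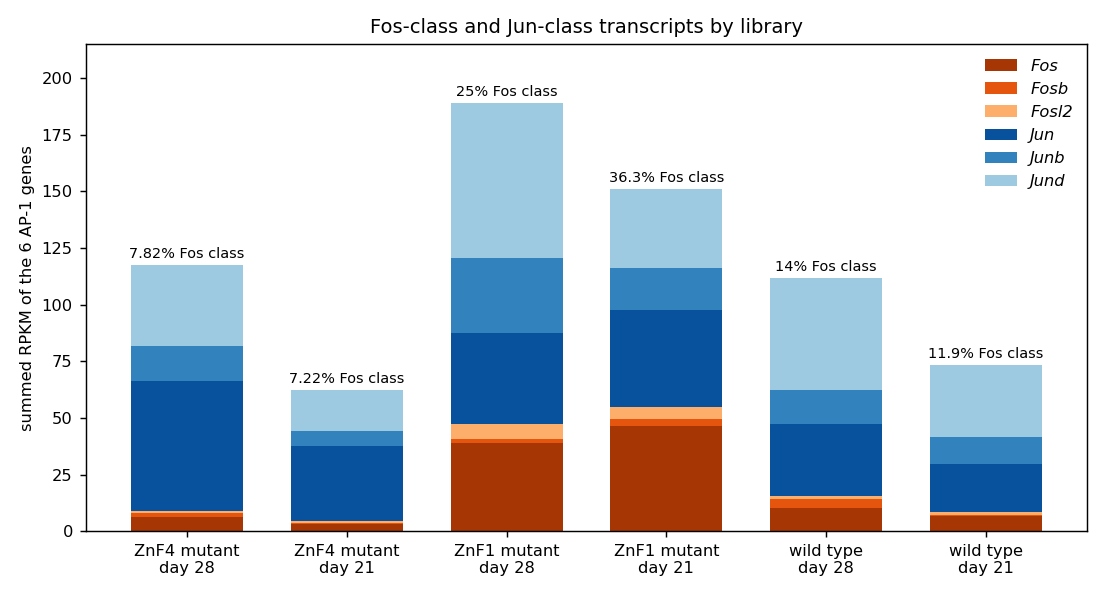
Stacked RPKM of the 3 Fos-class (orange) and the 3 Jun-class (blue) members in each library, without Fosl1. The Fos-class share of the stack is printed above it in percent. Genotypes are in the order ZnF4, ZnF1 and wt, with day 28 left of day 21. The share was 25.0% and 36.3% in ZnF1 cells, 14.0% and 11.9% in wt cells, and below 8% in ZnF4 cells.

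In the ZnF4 mutant the members had no common direction against wt. Jund was the single member called, and it fell by 0.61 ± 0.103 (adjusted p = 0.0173), so 0 members rose and 1 of 10 fell. Over all genes 10.9% rose and 7.32% fell. The members' median log2 difference was -0.22 (-0.35 for the 8 without Egr2 and Egr3), and that of all genes was 0.02. The ZnF4 values lay above both wt values for 2 members, Jun and Ier2, against 30.9% of all genes, and below both for 3, Fos, Fosl2 and Egr2, against 24.6% of all genes. Among the 8, those counts were 2 and 2.

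Jund had 36.1 RPKM at day 28 and 18.2 RPKM at day 21 in ZnF4 cells, against 49.5 and 31.8 RPKM in wt cells. It was lower on each day, but the ranges of the groups overlapped because day 28 was the higher day in both. The call was lost when any 1 of the 6 libraries was left out, with an adjusted p of up to 0.135, and without the day term (adjusted p = 0.439). Fos had 6.5 and 3.3 RPKM in ZnF4 cells at days 28 and 21, against 10.5 and 6.8 RPKM in wt cells, with a log2 difference of -0.74 ± 0.251 (adjusted p = 0.111). Jun had 57.2 and 33.2 RPKM in ZnF4 cells, against 31.6 and 21.1 RPKM in wt cells, with a difference of 0.73 ± 0.207 (adjusted p = 0.0708). For neither gene did the groups overlap, Fos being the lower and Jun the higher in ZnF4 cells, but neither passed the test. Both calls were gained without either ZnF1 library, which share in the estimate of the spread: Fos then had an adjusted p down to 0.0375 and Jun down to 0.0279.

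Ier2 had 41.5 and 29.2 RPKM in ZnF4 cells at days 28 and 21, against 24.0 and 27.0 RPKM in wt cells, with a difference of 0.44 ± 0.168 (adjusted p = 0.146). Fosl2 had 1.0 and 0.7 RPKM in ZnF4 cells, against 1.3 and 1.6 RPKM in wt cells, with a difference of -0.41 ± 0.142 (adjusted p = 0.118). Junb had 15.2 and 6.4 RPKM in ZnF4 cells, against 15.0 and 11.7 RPKM in wt cells, with a difference of -0.38 ± 0.19 (adjusted p = 0.24). These 3 were not called. The Egr genes were not called either. Egr1 had 17.1 and 26.0 RPKM in ZnF4 cells, against 12.9 and 21.6 RPKM in wt cells (difference 0.32 ± 0.241, adjusted p = 0.431). Egr2 had 0.6 RPKM on both days in ZnF4 cells, against 0.7 and 0.8 RPKM in wt cells (difference -0.13 ± 0.122, adjusted p = 0.534). Egr3 had 0.4 and 0.2 RPKM in ZnF4 cells, against 0.3 and 0.2 RPKM in wt cells (difference 0.05 ± 0.115, adjusted p = 0.794). A p above the threshold does not show that they were equal to wt. Fosb had 1.7 and 0.5 RPKM in ZnF4 cells, against 3.8 and 0.3 RPKM in wt cells, with a difference of -0.31 ± 0.575 (adjusted p = 0.758).

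Set directly against each other, the mutants differed in 8 of 10 members. ZnF4 cells held less RNA than ZnF1 cells of Fos, Fosl2, Egr1, Egr2, Egr3, Junb and Jund, and more of Ier2. Thus 7 of 10 members fell and 1 of 10 rose, and of the 8 members other than Egr2 and Egr3, 5 fell and 1 rose. Over all genes 23.2% fell and 22.3% rose, as 2637 and 2540 genes (2359 and 3431 under quantile scaling). The members' median log2 difference was -1.07 and that of all genes was 0.03, and the ZnF4 values lay below both ZnF1 values for 6 of the 10 members and for 4 of the 8, against 32.6% of all genes. The median of the 8 was also -1.07. This comparison uses the same ZnF1 libraries as the one against wt, so the 2 sets of values are not independent. The macrophage markers stood beside it in the same way, with 12 of 12 lower in ZnF4 than in ZnF1 cells and a median difference of -3.03, and their part in this difference was not tested.

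Fos had 6.5 and 3.3 RPKM in ZnF4 cells at days 28 and 21, against 39.0 and 46.4 RPKM in ZnF1 cells, and fell by 2.94 ± 0.251 on the log2 scale (adjusted p = 0.000893). Egr2 fell by 1.65 ± 0.122 (adjusted p = 0.000669) and Fosl2 by 1.91 ± 0.142 (adjusted p = 0.000685). These 3 were called under each of 13 alternative settings. Egr3 fell by 0.92 ± 0.115 (adjusted p = 0.00267). Egr2 and Egr3 passed the filter through the ZnF1 libraries alone here too, which favours a ZnF1 difference by construction. Egr1 fell by 1.30 ± 0.241 (adjusted p = 0.00982), and leaving out either ZnF4 library took its adjusted p to as much as 0.11. Junb fell by 1.23 ± 0.19 (adjusted p = 0.00535). Its adjusted p reached 0.0667 when a ZnF1 library was left out and 0.0675 when the day term was. Jund fell by 0.91 ± 0.103 (adjusted p = 0.00197), which did not pass without the day term (0.152). Jund is the one whose ranges overlapped, with 36.1 and 18.2 RPKM in ZnF4 cells and 68.4 and 35.1 RPKM in ZnF1 cells, although on each day the ZnF4 value was the lower one, at 0.528 times the ZnF1 value at day 28 and 0.519 times at day 21.

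Ier2 went the other way. It had 41.5 and 29.2 RPKM in ZnF4 cells at days 28 and 21, against 24.6 and 18.4 RPKM in ZnF1 cells, and rose by 0.68 ± 0.168 (adjusted p = 0.024). Its groups did not overlap, but the call was lost without any 1 of the 4 mutant libraries, with an adjusted p of up to 0.184. Jun had 57.2 and 33.2 RPKM in ZnF4 cells, against 40.1 and 42.9 RPKM in ZnF1 cells, and its difference of 0.07 ± 0.207 (adjusted p = 0.804) had an order that turned round between the days. Fosb had 1.7 and 0.5 RPKM in ZnF4 cells, against 1.6 and 3.2 RPKM in ZnF1 cells, with a difference of -0.72 ± 0.575 (adjusted p = 0.355). Without the ZnF1 library of day 28 the Fosb difference was -1.74 (adjusted p = 0.0499), and without that of day 21 it was 0.31.

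**Figure D3:**
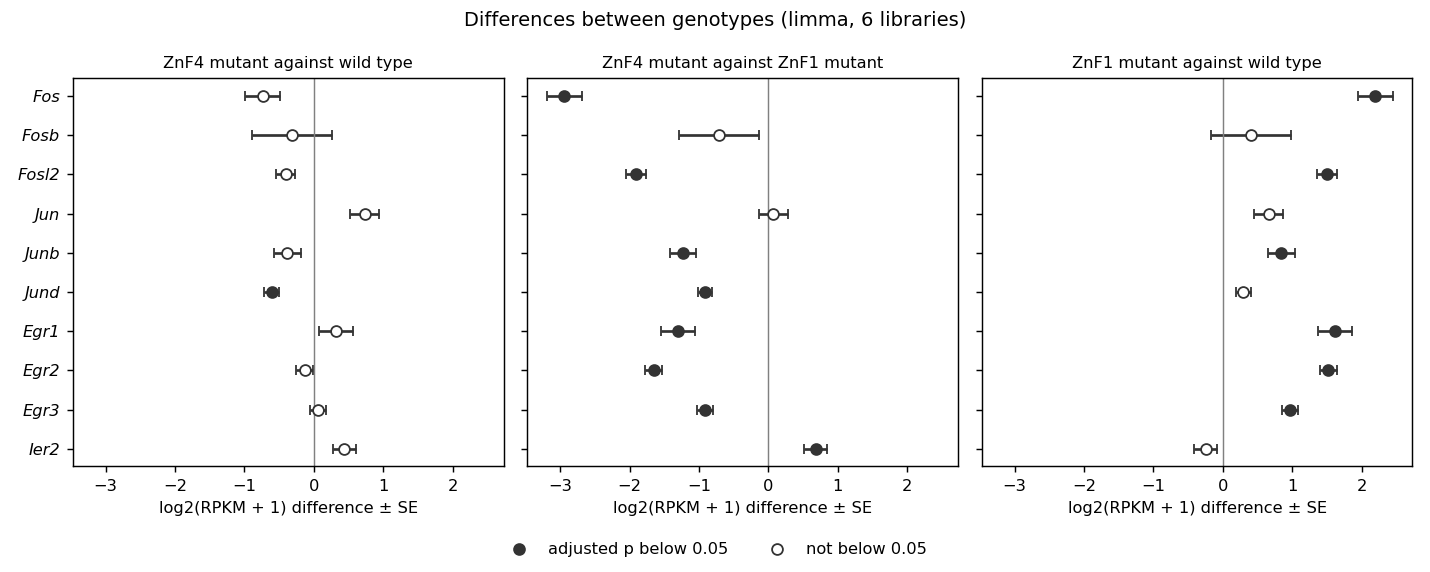
Log2(RPKM + 1) difference of each member with its standard error in panels for ZnF4 against wt, ZnF4 against ZnF1 and ZnF1 against wt, with filled circles for an adjusted p below 0.05. Against wt the ZnF4 differences lie on both sides of 0 and Jund alone is filled, while Fos lies at -2.94 for ZnF4 against ZnF1 and at 2.20 for ZnF1 against wt.

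Ordered by mean RPKM, which is scaled to length and so comparable between genes, the most abundant member was Jun in ZnF4 cells (45.2 ± 17.0 RPKM, SD, n = 2), Egr1 in ZnF1 cells (53.7 ± 7.35 RPKM) and Jund in wt cells (40.65 ± 12.5 RPKM). Ier2 followed at 35.35 ± 8.70 RPKM in ZnF4 cells, where its range overlapped that of Jun, though Jun was the higher on each day. In ZnF1 cells Jund followed at 51.75 ± 23.5 RPKM, above Egr1 at day 28 and below it at day 21. In wt cells Jun followed at 26.35 ± 7.42 RPKM, below Jund on each day and without overlap. These orders were not tested. Egr3 was the lowest in each genotype. Fosb, Fosl2 and Egr2 were between 0.60 and 2.05 RPKM on average in ZnF4 and wt cells.

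Time in culture gave no member that passed the test: 0 of 10 were called between day 28 and day 21, as were 0% of all genes in either direction. At an unadjusted p below 0.05, limma, the one tool run, marked 2 members, Junb and Jund, and 14.3% of all genes. Jund had 36.1, 68.4 and 49.5 RPKM at day 28 in ZnF4, ZnF1 and wt cells, against 18.2, 35.1 and 31.8 RPKM at day 21. It was higher at day 28 in 3 of 3 genotypes, by 1.98, 1.95 and 1.56 times. Its difference of 0.84 ± 0.0842 had an adjusted p of 0.154 in the limma fit. No gene had a smaller adjusted p, but others shared this value, and Jund ranked 5 by unadjusted p. Junb was higher at day 28 in 3 of 3 genotypes as well, by 2.38 times in ZnF4 cells, 1.82 times in ZnF1 cells and 1.28 times in wt cells (difference 0.77 ± 0.155, adjusted p = 0.191). Egr1 and Egr2 were higher at day 28 in 1 of 3 genotypes and the other members in 2 of 3.

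The genes around these factors were described by lists, whose share of called genes can be read against that of all genes. For ZnF1 against wt, 22.9% of all genes were higher and 15.2% lower. The shares were 10.9% and 7.32% for ZnF4 against wt, and 22.3% and 23.2% for ZnF4 against ZnF1. Of 31 tested immediate early genes outside the 10 members, 18 rose and 0 fell in ZnF1 cells, with a median log2 difference of 0.56. Without the wt library of day 28 the count was 10, and over the 6 libraries left out in turn it was 10 to 20. Cyr61, a secreted matrix protein gene that responds to serum, had 14.8 and 17.4 RPKM in ZnF1 cells at days 28 and 21, against 2.4 and 2.7 RPKM in wt cells, and rose by 2.27 ± 0.126 (adjusted p = 0.001). Plk2, a polo-like kinase gene, rose by 1.72 ± 0.109. Rgs1, whose product brakes G-protein signalling, rose by 1.59 ± 0.106, and Ier3, a gene of survival after stress, rose by 1.62 ± 0.11. These 4 had the smallest p of the list and were called under each of 13 alternatives. They rose beside the macrophage and stromal markers given above, whose part in the result was not tested here either.

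In ZnF4 cells against wt, 1 of those 31 genes rose and 7 fell, with a median of -0.08. Over all genes 10.9% rose and 7.32% fell in that comparison. Btg1, an antiproliferative gene, had 3.2 and 2.9 RPKM in ZnF4 cells at days 28 and 21, against 6.8 and 6.5 RPKM in wt cells, and fell by 0.92 ± 0.0924 (adjusted p = 0.00383). Rgs1 fell by 0.91 ± 0.106, Plk2 by 0.64 ± 0.109 and Csrnp1, a nuclear protein gene, by 0.52 ± 0.0677. Trib1, a pseudokinase gene, rose by 0.63 ± 0.15. None of these 5 calls held without either wt library or either ZnF4 library, and the number that fell was 4 without either ZnF1 library and 0 without any other. Between ZnF4 and ZnF1 cells 20 of the 31 fell and 1 rose, with a median of -0.775, beside 23.2% and 22.3% of all genes. Those with the smallest p were Rgs1, Plk2, Cyr61 and Ctgf, a matricellular gene, which fell by 2.36 to 2.51. The gene that rose was Myc, with 302.4 and 206.2 RPKM in ZnF4 cells at days 28 and 21, against 145.2 and 141.8 RPKM in ZnF1 cells (difference 0.80 ± 0.149, adjusted p = 0.0103), and it did not pass with either ZnF1 library left out.

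Other basic leucine zipper genes that can pair with Fos and Jun proteins were also mostly higher in ZnF1 cells. Of 12 tested, 7 rose and 0 fell against wt, with a median of 0.71. Among the 7 was Batf3, which reached the level for testing in the ZnF1 libraries alone. Its test thus favours a ZnF1 difference by construction. Maf, known as a factor of macrophages, rose by 1.91 ± 0.123. Fosl1 (Fra-1), the remaining Fos relative, had 2.7 and 4.5 RPKM in ZnF1 cells at days 28 and 21, against 0.8 and 1.2 RPKM in wt cells, and rose by 1.18 ± 0.119 (adjusted p = 0.00202). Jdp2, which represses AP-1 sites, rose by 1.12 ± 0.0859. In ZnF4 cells against wt, Jdp2 rose by 0.57 ± 0.0859 and Maf fell by 0.54 ± 0.123, both lost without single wt or ZnF4 libraries. Between ZnF4 and ZnF1 cells 7 of the 12 fell, among them Maf, Atf3 and Fosl1, and also Batf3 with the same limit. Batf, a lymphocyte AP-1 factor, rose by 0.55 ± 0.084 and Atf2 by 0.22 ± 0.0691, with the Batf call lost without the ZnF1 library of day 28 and that of Atf2 without any 1 library.

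Nab2, a corepressor that Egr1 induces and that restrains Egr proteins, had 5.6 and 6.1 RPKM in ZnF1 cells at days 28 and 21, against 0.8 and 1.4 RPKM in wt cells, and rose by 1.72 ± 0.116 (adjusted p = 0.00102). Nab1, its relative, did not pass in ZnF1 cells (0.10 ± 0.113), and in ZnF4 cells it rose by 0.51 ± 0.113 (adjusted p = 0.0378), which did not pass with any 1 library left out. Egr4, the fourth Egr gene, was listed at 0 in all libraries. Between ZnF4 and ZnF1 cells Nab2 fell by 1.54 ± 0.116 and Nab1 rose by 0.40 ± 0.113, the Nab1 call holding only when no library or the day 28 library of ZnF4 was left out.

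Kinases and factors that act before the immediate early genes were also read. Of 17 genes for Ras, ERK, JNK and p38 kinases, RSK kinases and Creb1, 2 rose and 3 fell in ZnF1 cells against wt, with a median of -0.07. Rps6ka1, a kinase that ERK activates, had 26.5 and 26.1 RPKM in ZnF1 cells at days 28 and 21, against 8.3 and 12.8 RPKM in wt cells, and rose by 1.27 ± 0.148 (adjusted p = 0.00293). It also rose in ZnF4 cells, by 0.86 ± 0.148 (adjusted p = 0.018), as 1 of 17 there, but not with a ZnF4 library or the day 28 library of wt left out. Mapk3 (ERK1) rose by 0.27 ± 0.0649 in ZnF1 cells, while Creb1, the gene of CREB, fell by 0.25 ± 0.0729. Neither passed when a wt or ZnF1 library was left out. Between ZnF4 and ZnF1 cells 4 of the 17 rose and 0 fell, beside 22.3% and 23.2% of all genes. Among the 4 were Creb1, by 0.27 ± 0.0729, and Mapk8 (JNK1), by 0.27 ± 0.0805. With any 1 library left out, 0 or 1 rose.

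Of serum response factor, its Ets partners and its coactivators, 3 of 6 rose in ZnF1 cells against wt: Elk3 by 0.39 ± 0.0648, Mkl2 by 0.98 ± 0.178 and Elk1 by 0.36 ± 0.089. All 3 calls were lost without either wt library. Elk3, which can repress serum response elements, rose by 0.75 ± 0.0648 in ZnF4 cells (adjusted p = 0.00248), also lost without either wt library. Between ZnF4 and ZnF1 cells Elk3 rose by 0.36 ± 0.0648, while Mkl2 fell by 1.57 ± 0.178 and Mkl1 by 0.46 ± 0.0788. Without the day 21 library of ZnF1 the Mkl1 adjusted p was 0.0833, and without either ZnF1 library that of Elk3 was up to 0.0835. Srf itself had 20.1 and 22.1 RPKM in ZnF1 cells at days 28 and 21, against 20.7 and 22.1 RPKM in wt cells. Of 7 heat shock genes, Hspa1a, Hspa1b and Hspb1 were at 0.3 RPKM or less in every library and were not tested. Of the 4 tested, 0 rose in ZnF1 cells and Hsph1 fell by 0.48 ± 0.0661 (adjusted p = 0.00491). That call did not pass with any 1 of the wt and ZnF1 libraries left out. With no filter on low values, 2 of the 7 were called higher in ZnF1 cells and 1 lower. That setting admits Hspa1a, Hspa1b and Hspb1, and values of 0.3 RPKM or less rest on few steps of 0.1. Between ZnF4 and ZnF1 cells Hsph1 and Hspa8 rose, by 0.34 ± 0.0661 and 0.47 ± 0.0744, and neither passed without the day 21 library of ZnF1.

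**Figure D4:**
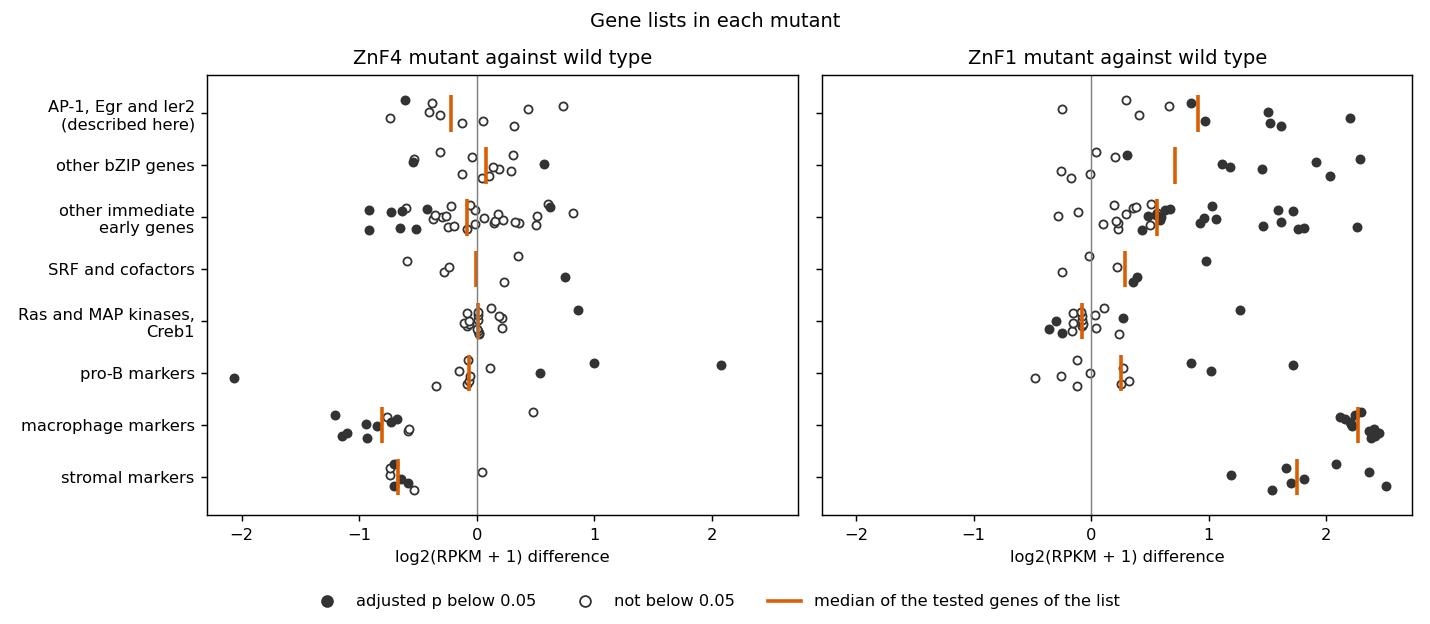
Log2(RPKM + 1) difference of every tested gene of 8 lists, in panels for ZnF4 against wt and ZnF1 against wt, with filled circles for an adjusted p below 0.05 and an orange bar at each list's median. In ZnF1 cells the members' median was 0.91, that of the other immediate early genes 0.56 and that of the kinases -0.07, while the macrophage markers had a median of 2.27.

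Genes with the pattern most like that of a member were found by the root mean square distance of log2(RPKM + 1) values, centred on each gene's mean, over the 6 libraries. For Fos the 4 nearest were Dmpk (distance 0.263), Cd14 (0.286), Ccl9 (0.299) and Tnfaip2 (0.312). Cd14 is one of the 12 macrophage markers, and it had 35.8 and 39.7 RPKM in ZnF1 cells at days 28 and 21, against 5.8 and 7.3 RPKM in wt cells. For Egr1 they were Ms4a1 (0.149), Cox6b2 (0.151), Anxa1 (0.152) and Ckap4 (0.156). Ms4a1 was low, with 3 and 2 RPKM in ZnF1 cells at days 28 and 21, against 0.1 and 0.6 RPKM in wt cells. Its values in ZnF4 cells were also 0.1 and 0.6 RPKM, so it passed the filter through the ZnF1 libraries alone. For Jun the nearest was Nr4a1 (0.0812), an immediate early nuclear receptor gene of the list above, with 4.6 and 2.1 RPKM in ZnF4 cells, 2.4 and 2.6 RPKM in ZnF1 cells, and 1.8 and 1.0 RPKM in wt cells at days 28 and 21. The next were Mib2 (0.164), Ankrd13b (0.168) and Agpat4 (0.174). With 6 libraries such a likeness is a description.

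Ikzf1, the mutated gene, had 165.9 and 186 RPKM in ZnF4 cells at days 28 and 21, 91.4 and 108 RPKM in ZnF1 cells, and 78.7 and 89.2 RPKM in wt cells. Because these values cover the whole transcript, they do not test whether a finger is missing. The number of gene symbols that reached 1 RPKM was 10539 and 10500 in ZnF4 libraries at days 28 and 21, 11233 and 11110 in ZnF1 libraries, and 10401 and 10455 in wt libraries, so both ZnF1 libraries stood above the others. The read depth is unknown.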

How the data were processed

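Poly(A) RNA of 6 libraries, 1 per genotype and day, was sequenced as fragmented double-stranded cDNA, per the labels' protocols. TopHat, bedtools and the mouse build mm9 are named in the submitters' processing notes, per the labels, without versions. The authors deposited RPKM values rounded to 1 decimal for 26531 RefSeq transcripts. Read depth is unknown, so no counting interval or limit for a value of 0 is given. A further row without a gene was left out (1 row). For the 3305 symbols with several rows, the row with the highest mean was used.

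Values were analysed as log2(RPKM + 1), a scale that understates changes of low genes, for genes at 1 RPKM or more in at least 2 of 6 libraries. Genotype and day were fitted together with limma 3.58.1 in R 4.3.3, on all 6 libraries, using moderated variances with a trend. For each gene, 2 residual degrees of freedom were combined with a prior of 3.22, and p-values were adjusted over all 11379 genes by Benjamini-Hochberg. The fit was tested on simulated data. Day is the replicate number and a label shared by the genotypes, and it was kept as a block. Deviations of same-day libraries correlated between ZnF1 and wt, ZnF4 and wt, and ZnF4 and ZnF1 with Pearson coefficients of 0.433, 0.249 and 0.226 across genes.

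The members and gene lists were chosen with earlier results of these data known. All members are given for each genotype comparison. Of other lists, all called genes are named where 5 or fewer were called in a comparison and direction, and otherwise the 4 with the smallest p. Some genes that this rule names are not reported here. Cell type markers are given as lists. Srf, Prdx2, Batf3 and the single markers given with values were named beyond this rule, after their values were seen. Alternatives changed the block, the filter, the scaling, the pseudocount to 0.1, the choice of rows and the libraries used.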

Additional observations from a re-analysis of the deposited data

Results flagged for a closer look

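In 4 cases a member lay above wt on 1 day and below it on the other. Each genotype had 1 library on each day, so these reversals between days were not tested. Fosb in ZnF1 cells was 0.88 below wt at day 28 and 1.69 above it at day 21 on the log2(RPKM + 1) scale, a gap of -2.58 between the days. Fosb in ZnF4 cells had differences of -0.83 at day 28 and 0.21 at day 21 against wt, a gap of -1.04. In both cases the wt value moved most, with 3.8 RPKM at day 28 and 0.3 RPKM at day 21. Junb in ZnF4 cells had differences of 0.02 and -0.78 against wt at days 28 and 21, a gap of 0.80. Ier2 in ZnF1 cells had differences of 0.03 and -0.53 against wt at days 28 and 21, a gap of 0.56.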

How the results depend on the processing

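The number of members called for ZnF1 against wt was 6, 3 with no filter on low values, and 4 to 6 when 1 library was left out. For ZnF4 against wt it was 1, 0 without the replicate block, 0 with no filter, 0 to 2 when 1 library was left out, and 2 with only the 4 libraries of those genotypes, a setting chosen after seeing the data. For ZnF4 against ZnF1 it was 8, 5 with no filter and 6 to 8 when 1 library was left out. For day 28 against day 21 it was 0 throughout. Without the replicate block 5, 0 and 6 members were called in the 3 genotype comparisons. Without the filter more low genes share the adjustment. A call of Fos in ZnF1 cells was lost with no filter (adjusted p = 0.0643), as was that of Egr1 (0.0958), and Egr3 between ZnF4 and ZnF1 cells was lost under quantile scaling (0.0583), under which Jun and Jund were called in ZnF1 cells against wt.

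Differences that turned round were all uncalled with the 6 libraries together. With 1 library left out, Ier2 lay between -0.553 and 0.0574 and Fosb between -0.625 and 1.43 for ZnF1 against wt. For ZnF4 against wt, Egr3 lay between -0.0436 and 0.151 and Fosb between -1.22 and 0.591. For ZnF4 against ZnF1, Jun lay between -0.309 and 0.45 and Fosb between -1.74 and 0.314, and Jun was -0.0169 under quantile scaling. Egr2 between the days lay between -0.0412 and 0.129. The causes of these changes were not tested. Quantile scaling moved the median of all genes to -0.12 for ZnF1 against wt and to 0.116 for ZnF4 against ZnF1, and with it 2047 genes rose and 2913 fell for ZnF1 against wt, in place of 2606 and 1730. Relative to those medians all called members kept their direction. Values are limited by rounding to 0.1 RPKM below about 1 RPKM, which touches Egr3, Egr2 and Fosb.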
